A study of Homo sapiens with 18 samples.

Results

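The genes described here supply cells with amino acids or respond to a shortage of them, and most are known targets of the transcription factor ATF4. They were chosen by name, by a rule that uses no measured value but with earlier results of these data known, as 38 of the 19395 genes on the arrays that carried a single gene symbol in the deposited annotation. They comprise 9 regulators and stress effectors, 11 enzymes, 8 amino acid transporters and 10 cytosolic tRNA synthetases. All 38 were bright enough to be tested, with a mean log2 signal of at least 6.98. A member with several probe sets was represented by the probe set of highest mean over the arrays. For CHAC1 the deposited annotation gave the older name MGC4504, and its probe set was matched through a RefSeq accession.

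The cells were LNCaP, a single established line grown out of a lymph node metastasis of prostate carcinoma, which responds to androgen. The serum of the medium was stripped of hormones in all groups, and every treatment lasted 16 h. Dihydrotestosterone (DHT), the most potent natural androgen in the prostate, was given at 100 nM. Enzalutamide, an antiandrogen drug used against prostate cancer, was given at 1 or 10 µM, alone or beside 100 nM DHT, and the remaining cells received the solvent DMSO as vehicle. Each of the 6 groups had 3 arrays. No label tells whether these were separate cultures, so p-values refer only to how these samples varied, and that variation may be technical.

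ATF4 is the main transcription factor of the integrated stress response. Kinases that sense uncharged tRNA, unfolded proteins or other stress phosphorylate the initiation factor eIF2, which slows translation in general but favours translation of the ATF4 mRNA. ATF4 then pairs with C/EBP proteins on composite DNA elements and activates genes for serine, asparagine and proline synthesis, amino acid uptake and tRNA charging. The arrays measured mRNA and hold no information on ATF4 protein.

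The core of the C/EBP-ATF composite element, TGATGNAA, was searched on both strands in RefSeq promoter windows of build GRCh38.p14, which run from 250 bases before to 50 bases after a gene's start. Of the 38 genes, 29 had a window, and 11 of these (37.9%) held the motif, against 1003 of all 27305 windows (3.67%). The share describes the windows only, since known ATF4 targets were put in the list by name. In 8 of these genes the motif is shown with up to 10 bases on either side, turned so that TGATGNAA reads 5′ to 3′ and with the motif in capitals. These genes span every role in the list, from the regulator ATF3 to the synthetases NARS, CARS and TARS.
ATF3: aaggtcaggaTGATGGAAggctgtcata
GOT1: ctgccgagaaTGATGCAAccaatgcaat
SLC7A1: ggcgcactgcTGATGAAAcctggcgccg
SLC3A2: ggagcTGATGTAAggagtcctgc
SLC38A1: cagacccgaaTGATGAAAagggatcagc
NARS: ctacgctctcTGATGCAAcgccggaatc
CARS: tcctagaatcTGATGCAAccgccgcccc
TARS: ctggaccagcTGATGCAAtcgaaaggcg
GOT1, NARS, CARS and TARS carried the same letters in the motif, as did SLC7A1 and SLC38A1. The windows of CHAC1, ASNS and AARS also held the motif, though their sequences are not shown. Those of PSAT1, PHGDH and DDIT3 did not hold it.

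Values are the authors' deposited log2 signals, which lay on a common scale over the arrays. A difference is that of 2 group means on the log2 scale, and ± gives its standard error in a limma fit to all 18 arrays. Genes with an adjusted p under 0.05 (Benjamini-Hochberg over 12840 genes) are termed called. The 3 arrays of a group correlated with each other at r of 0.961 to 0.989 over the tested genes. All 10 luminal prostate markers lay above the brightness limit, including KLK3. Among the 18 markers of basal cells, fibroblasts, leukocytes and endothelium, 8 lay above the limit, with COL1A1 the brightest at 10.24. They were 2 of 3 basal markers (KRT5 and TP63), 2 of 6 fibroblast markers (COL1A1 and DCN), 2 of 6 leukocyte markers (CD3E and MS4A1) and 2 of 3 endothelial markers (PECAM1 and VWF). Among those under the limit, KRT14, PTPRC, CD14 and CDH5 had means between 2.48 and 4.45. The summed signal of these 18 markers, as log2, was 11.77 to 12.01 with vehicle, 11.34 to 11.52 with DHT and 11.59 to 11.93 in the other groups. Of the 8 above the limit, COL1A1 was called with DHT against vehicle (-0.78, adjusted p = 0.000294, limma). It was also called with DHT added to 1 µM enzalutamide (-0.42). The endothelial gene VWF was called with 1 or 10 µM enzalutamide beside DHT (1.96 and 1.80), but not with DHT against vehicle (-1.55). Its DHT effect beside 1 µM enzalutamide differed from that without the drug by 2.72, also called. The part of these differences in the results below was not tested. In such bulk RNA, fewer expressing cells and less RNA per cell cannot be told apart.

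A pair of arrays stood apart in a measure of RNA quality, here termed the high-ACTB pair. Counts of calls in the list are given with and without the pair, and so are many values of single genes. The 3′ to 5′ signal ratio of the ACTB control probe sets, which rises when RNA is degraded or copied incompletely, was 4.50 on DHT array 2 and 6.04 on array 2 of 1 µM enzalutamide. It lay between 1.42 and 1.80 on the other 16 arrays. With the pair left out, the DHT and 1 µM enzalutamide groups rested on the remaining arrays, and their spread was pooled with that of the other groups. In that fit both VWF (-2.03) and COL1A1 (-0.71) were called with DHT against vehicle. The DHT mean of VWF was then 6.18, under the brightness limit, so the size of its change is uncertain. VWF stayed called with 1 or 10 µM enzalutamide beside DHT (2.44 and 2.28), and COL1A1 was no longer called with DHT added to 1 µM (-0.37).

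With DHT, PSAT1, CHAC1, PHGDH, DDIT3, ASNS and AARS fell against vehicle and GOT1 rose. These 6 lower and 1 higher of the 38 genes (18.4% called) stood beside 16.1% called among all genes tested (8.34% lower and 7.76% higher), so the total share called was near the background. The median change over the 38 was -0.13, against -0.03 over all genes. With each array centred on its median, 1 rose and 2 fell. The falls were those of PSAT1 and CHAC1, and the gene that rose was not GOT1, which lost its call. The share of all genes called with centring is not given, so this count has no background.

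Among the regulators and stress effectors, 2 of 9 fell and none rose. CHAC1 encodes an enzyme that degrades glutathione and is a sensitive readout of ATF4. Its log2 signal was 7.91, 7.70 and 7.51 on the vehicle arrays and 6.88, 6.21 and 6.05 on the DHT arrays. The groups did not overlap, and CHAC1 fell by 1.33 ± 0.29 on the log2 scale (2.52-fold lower; adjusted p = 0.00274, limma). The DHT mean of 6.38 lies under the brightness limit, which leaves the size of this change uncertain. The call held under all 25 alternative settings that tested CHAC1, leaving out the pair with high ACTB ratios among them (-1.25, adjusted p = 0.0109).

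DDIT3 (CHOP), a transcription factor tied to cell death under prolonged stress, read 9.67, 9.40 and 9.32 with vehicle and 8.78, 8.76 and 9.31 with DHT. DHT array 3 lay just under the lowest vehicle array, and the other DHT arrays lay further below. DDIT3 fell by 0.51 ± 0.16 (adjusted p = 0.0368, limma), and without the high-ACTB pair the difference was -0.42 and not called (adjusted p = 0.131). It was also not called without vehicle array 1 (-0.41, adjusted p = 0.168), vehicle array 2 (-0.54, adjusted p = 0.0697), DHT array 1 (-0.43, adjusted p = 0.126) or DHT array 2 (-0.42, adjusted p = 0.146).

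ATF4 itself was measured at 12.93, 12.87 and 12.79 with vehicle and at 12.28, 13.02 and 12.32 with DHT. DHT array 2, with the high ACTB ratio, stood above every vehicle array, and the other DHT arrays stood below all of them. Over all arrays the difference was -0.32 ± 0.16 and not called (adjusted p = 0.195, limma). Without the high-ACTB pair ATF4 fell by 0.56 ± 0.11 (adjusted p = 0.00168). CEBPG, a dimer partner of ATF4, and the stress-induced factor ATF3 were likewise called only without this pair. CEBPG went from -0.30 ± 0.11 (adjusted p = 0.0869) to -0.39 ± 0.10 (adjusted p = 0.0140), and ATF3 from -0.26 ± 0.10 (adjusted p = 0.0817) to -0.33 ± 0.10 (adjusted p = 0.0237).

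The remaining regulators were not called with DHT in either fit. The differences over all arrays were -0.10 for ATF5, a stress-induced relative of ATF4, and 0.05 for the pseudokinase TRIB3. The mTORC1 inhibitors DDIT4 and SESN2 differed by -0.21 and -0.22. A second SESN2 probe set, also above the brightness limit, differed by -0.54, and by -0.69 without the high-ACTB pair.

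**Figure D1:**
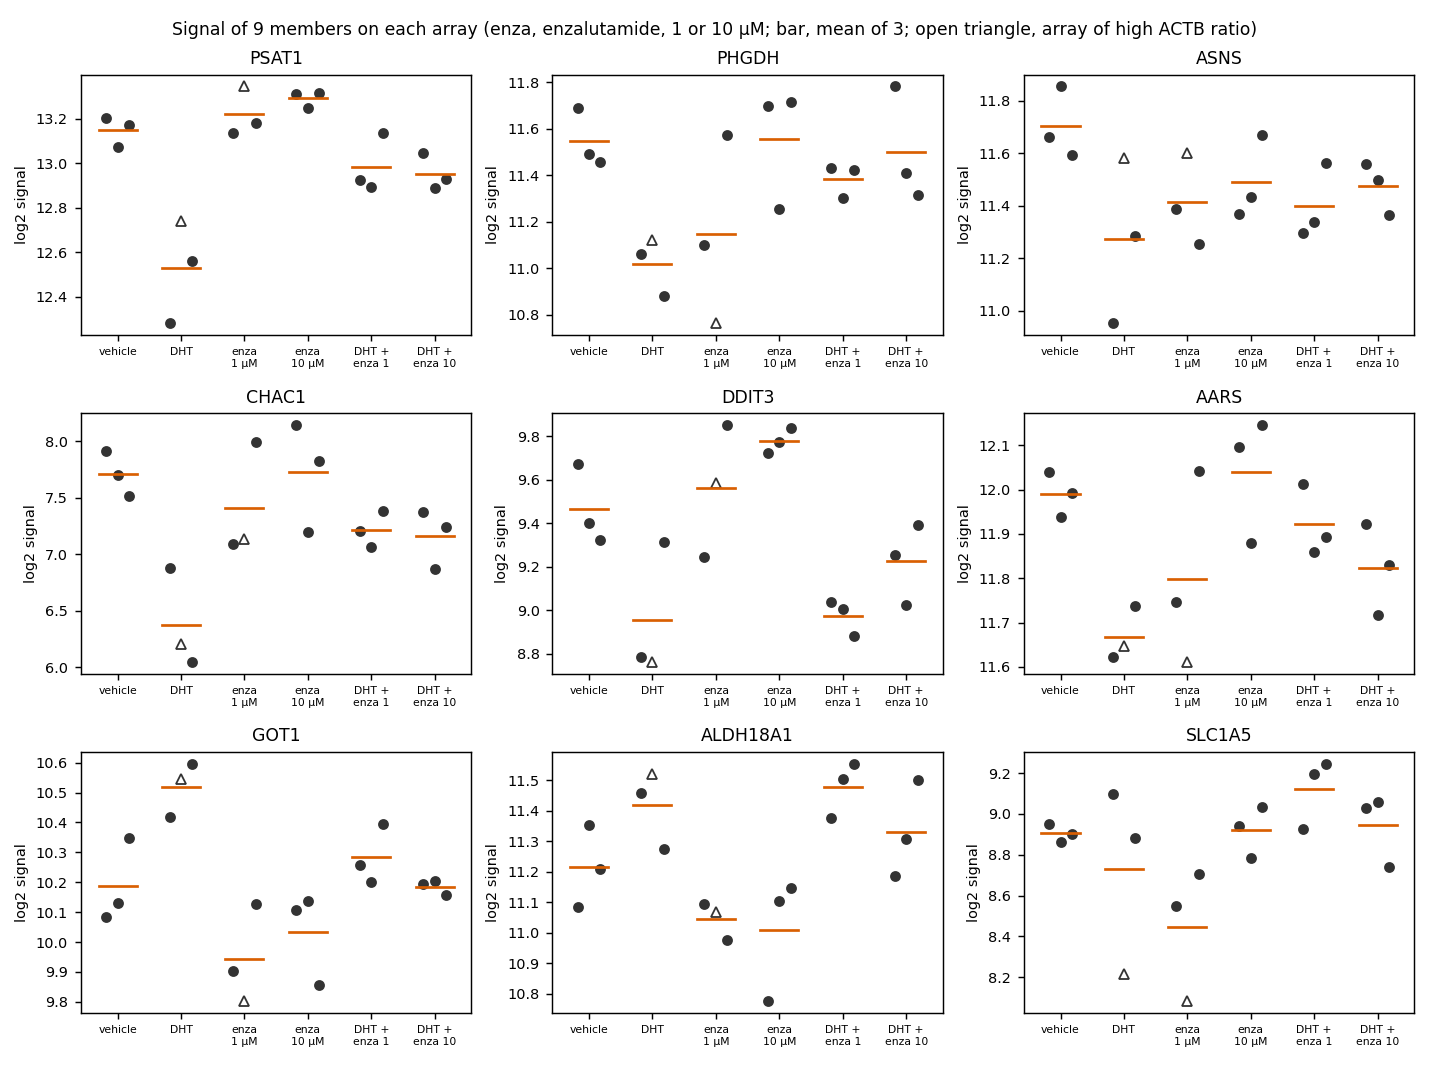
Log2 signal of 9 genes (vertical axes) on each of the 3 arrays of the 6 groups (horizontal axis), with a bar at each group mean and open triangles for the arrays of high ACTB ratio. PSAT1 on the DHT arrays (12.28 to 12.74) lies below all other arrays, and CHAC1, DDIT3, PHGDH and AARS are lower with DHT than with vehicle on all arrays.

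Of the 11 enzymes 3 fell and 1 rose. PSAT1, the transaminase of the serine synthesis pathway, read 13.20, 13.07 and 13.17 with vehicle and 12.28, 12.74 and 12.56 with DHT. Every DHT array lay below every other array of the study. PSAT1 fell by 0.62 ± 0.10 (1.54-fold lower; adjusted p = 0.000198, limma), a call that held under all 26 alternative settings. Without the high-ACTB pair the fall was 0.73 ± 0.09. A second PSAT1 probe set differed by -1.16 in the same comparison, and by -0.90 without the pair.

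PHGDH, which catalyses the first step of serine synthesis from a glycolytic intermediate, read 11.69, 11.49 and 11.46 with vehicle and 11.06, 11.12 and 10.88 with DHT. The groups did not overlap, and PHGDH fell by 0.53 ± 0.17 (adjusted p = 0.0372, limma), or by 0.58 without the high-ACTB pair (adjusted p = 0.0163). The call was lost on leaving out any vehicle array, DHT array 1 or DHT array 3, with adjusted p between 0.0608 and 0.144 and differences between -0.57 and -0.46. PSPH, the phosphatase of the last step, differed by 0.13 ± 0.14 with overlapping groups (adjusted p = 0.619).

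ASNS, which makes asparagine from aspartate and glutamine, read 11.66, 11.86 and 11.59 with vehicle and 10.95, 11.58 and 11.28 with DHT. DHT array 2 came close to the vehicle arrays and the others lay lower. ASNS fell by 0.43 ± 0.14 (adjusted p = 0.0375, limma), and by 0.59 ± 0.12 without the high-ACTB pair (adjusted p = 0.00207). Leaving out vehicle array 1 (-0.45, adjusted p = 0.0761), vehicle array 2 (-0.35, adjusted p = 0.161), DHT array 1 (-0.27, adjusted p = 0.192) or DHT array 3 (-0.44, adjusted p = 0.0760) ended the call.

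GOT1, the cytosolic aspartate aminotransferase, went the other way, from 10.09, 10.13 and 10.35 with vehicle to 10.42, 10.55 and 10.60 with DHT. The groups did not overlap, and GOT1 rose by 0.33 ± 0.11 (adjusted p = 0.0438, limma). This call was close to the threshold. Centring each array on its median, dropping the brightness filter or dropping the intensity trend ended it. It was lost without the high-ACTB pair (0.32, adjusted p = 0.0689), and also without vehicle array 1 or 2, DHT array 2 or 3, or any of 6 arrays of the drug groups, with adjusted p between 0.0522 and 0.167.

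The proline synthesis enzymes ALDH18A1 and PYCR1 differed by 0.20 ± 0.11 and 0.34 ± 0.12 (adjusted p = 0.254 and 0.0591, limma). PYCR1, which carries out the final reduction to proline, rose by 0.40 without the high-ACTB pair (adjusted p = 0.0366). CTH, which releases cysteine from cystathionine, did not overlap between the groups (9.57, 9.57 and 9.69 with vehicle, 9.80, 10.29 and 10.08 with DHT) and missed the threshold (0.45 ± 0.15, adjusted p = 0.0553). Its highest DHT value is on the array of high ACTB ratio, and without the pair the CTH difference was 0.33 (adjusted p = 0.202). The mitochondrial alanine aminotransferase GPT2 differed by 0.45 ± 0.23 (0.63 without the pair, adjusted p = 0.0866), and the mitochondrial one-carbon enzymes SHMT2 and MTHFD2 by 0.05 and 0.11, with overlapping groups for all 3.

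**Figure D2:**
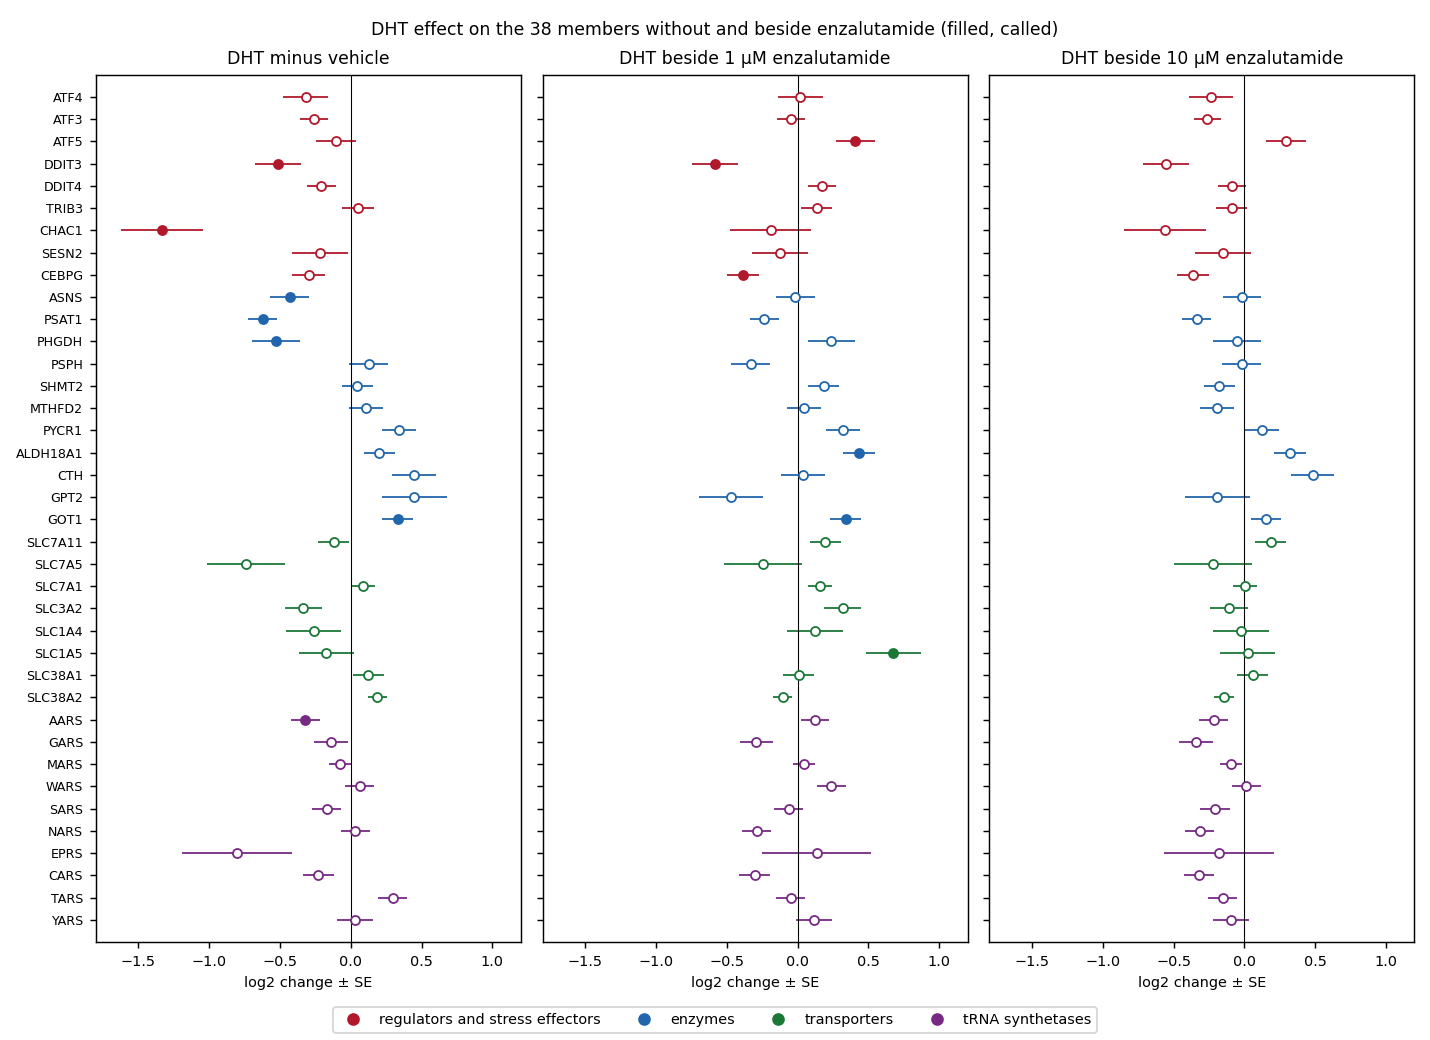
Log2 change with its standard error (horizontal axes) for each of the 38 genes (rows, coloured by role) for DHT against vehicle, and for DHT added to 1 or 10 µM enzalutamide against the same dose alone. Filled points were called; PSAT1 is at -0.62, -0.24 and -0.34 in the 3 panels and CHAC1 at -1.33, -0.19 and -0.56.

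None of the 8 transporters was called with DHT, and 3 had an unadjusted p under 0.05 (limma), as had 27.7% of all genes. SLC7A5 and SLC3A2 form the exchanger that brings leucine and other large neutral amino acids into the cell. SLC7A5 read 7.92, 8.11 and 8.09 with vehicle and 6.65, 7.77 and 7.47 with DHT, and SLC3A2 read 10.33, 10.53 and 10.38 with vehicle and 10.11, 9.98 and 10.14 with DHT. For both, every DHT array lay below every vehicle array, yet SLC7A5 (-0.74 ± 0.28, adjusted p = 0.0767) and SLC3A2 (-0.34 ± 0.13, adjusted p = 0.0934) missed the threshold. SLC7A5 fell by 0.98 ± 0.27 without the high-ACTB pair (adjusted p = 0.0160). Its DHT reading of 6.65 lies under the brightness limit, which leaves the size of this change uncertain. SLC38A2, a neutral amino acid transporter induced by amino acid starvation, differed by 0.19 ± 0.07 (adjusted p = 0.0768), with 13.49, 13.48 and 13.48 on the DHT arrays above 13.27, 13.27 and 13.35 with vehicle. The cystine carrier SLC7A11, the arginine carrier SLC7A1, the neutral amino acid carriers SLC1A4 and SLC1A5 and the glutamine carrier SLC38A1 overlapped between the groups, with differences from -0.26 for SLC1A4 to 0.12 for SLC38A1. SLC7A11 differed by -0.12 on the probe set used, and by -0.42 and 0.05 on its other probe sets.

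Of the 10 synthetases, which attach amino acids to their tRNAs, only the alanine enzyme AARS was called with DHT when all arrays were used. AARS read 12.04, 11.94 and 11.99 with vehicle and 11.62, 11.65 and 11.74 with DHT, without overlap. It fell by 0.32 ± 0.10 (adjusted p = 0.0369, limma), and by 0.31 without the high-ACTB pair (adjusted p = 0.0417). Leaving out any vehicle array, DHT array 1 or DHT array 2 raised the adjusted p to between 0.0651 and 0.122, with differences between -0.35 and -0.30.

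The other 9 synthetases ranged from -0.80 to 0.30. MARS differed by -0.08 on the probe set used, and by -0.43 and -0.40 on its other probe sets (-0.28 and -0.15 without the high-ACTB pair). TARS, the threonine enzyme, was higher on all DHT arrays (12.03, 11.96 and 12.00) than on the vehicle arrays (11.61, 11.75 and 11.73), with 0.30 ± 0.10 (adjusted p = 0.0557, limma). It rose by 0.32 (adjusted p = 0.0422) without the high-ACTB pair, where the cysteine enzyme CARS fell by 0.36 (adjusted p = 0.00687) and the serine enzyme SARS by 0.31 (adjusted p = 0.0141).

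EPRS, the joint glutamate and proline synthetase, had the lowest value of the 10 (-0.80 ± 0.39, adjusted p = 0.184, limma) and was low on both arrays of high ACTB ratio. It read 10.39 and 11.37 there and from 11.68 to 12.89 on the other 16. A second EPRS probe set read 6.23 and 7.75 on that pair and 9.33 to 10.59 elsewhere. The remaining probe set read 10.95 and 11.52 there, against 10.96 to 11.63 elsewhere. With the high-ACTB pair left out, the EPRS difference was -0.23.

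**Figure D3:**
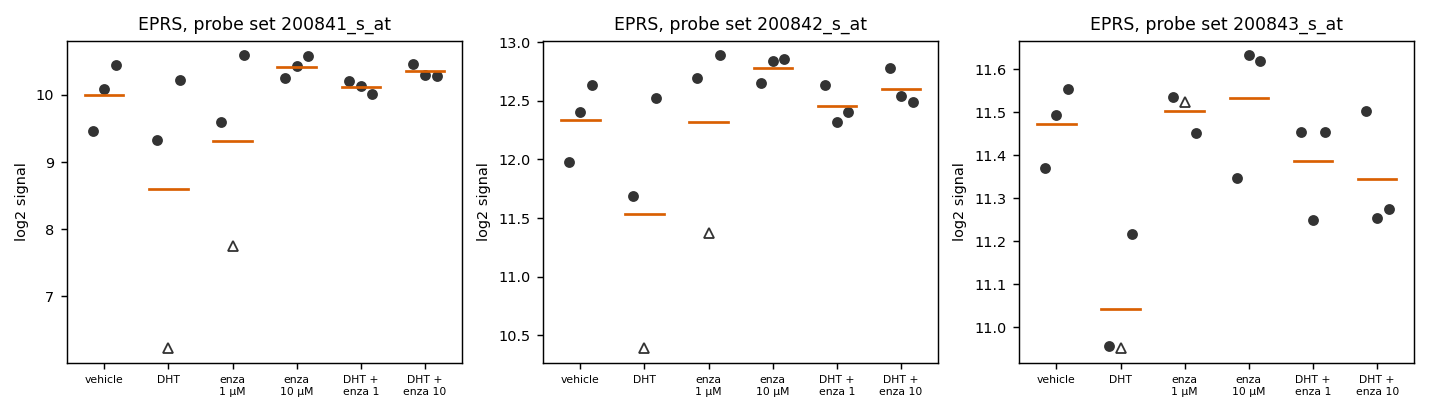
Log2 signal of the 3 EPRS probe sets (vertical axes) on each array of the 6 groups (horizontal axis), with bars at group means and open triangles for the arrays of high ACTB ratio. In the first 2 panels the triangles lie below all other arrays (6.23 and 7.75, 10.39 and 11.37), and in the third panel they read 10.95 and 11.52, against 10.96 to 11.63 on the others.

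Leaving out the high-ACTB pair gave 13 called genes for DHT, 11 lower and 2 higher (34.2%), beside 16.7% of all genes tested. Of the 7 genes called with all arrays, 5 were among them. The genes called only in this fit were ATF4, ATF3, CEBPG, SLC7A5, SARS and CARS, all lower, and PYCR1 and TARS, both higher. By role the calls were 4 of 9 regulators, 4 of 11 enzymes, 1 of 8 transporters and 4 of 10 synthetases. The median change over the 38 genes was -0.19, against -0.05 over all genes.

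**Figure D4:**
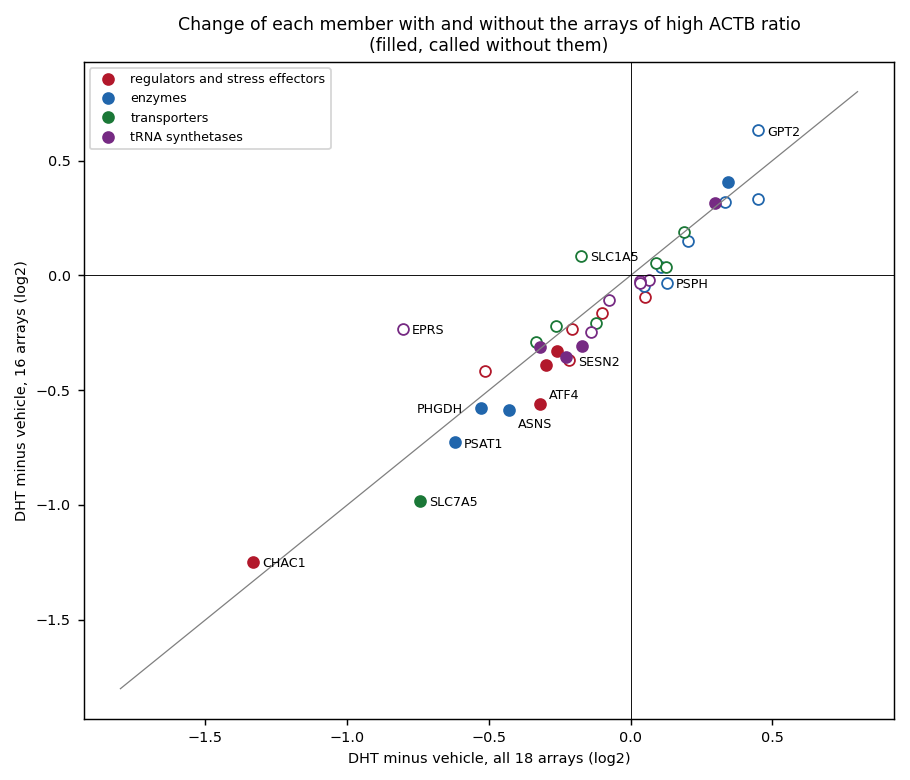
Log2 change with DHT of each of the 38 genes over all 18 arrays (horizontal axis) and over 16 arrays without those of high ACTB ratio (vertical axis), with the line of equality. Filled points were called without those arrays. EPRS moves from -0.80 to -0.23 and ATF4 from -0.32 to -0.56.

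Enzalutamide without DHT changed few of these genes. At 1 µM, 1 of 38 rose and none fell, beside 6.77% called among all genes tested, and the median change was -0.01. That gene was NARS, the asparagine synthetase of tRNA charging, at 13.55, 13.69 and 13.58 with vehicle and 13.87, 14.14 and 13.85 with the drug (0.35 ± 0.10, adjusted p = 0.0471, limma). The highest value is on the array of high ACTB ratio, and without that array and its DHT counterpart the difference was 0.26 (adjusted p = 0.155), and none of the 38 was called (beside 3.33% of all genes). The NARS call held under 5 of 26 alternative settings. PSAT1, CHAC1 and ASNS differed from vehicle by 0.07, -0.30 and -0.29 at this dose, none of them called.

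At 10 µM none of the 38 was called, beside 0.81% of all genes. An unadjusted p under 0.05 (limma) was reached by 6 of the 38 (15.8%) and by 15.2% of all genes. The median change was 0.05. PYCR1 came closest, at 10.28, 10.16 and 10.35 against 9.81, 9.82 and 9.72 with vehicle (0.48 ± 0.12, adjusted p = 0.0662), and it rose in the fit without the high-ACTB pair (adjusted p = 0.0351; 1 of 38, beside 2.87% of all genes), although neither array belongs to these groups. PSAT1 read 13.31, 13.25 and 13.31, above every vehicle array, with a difference of 0.14 ± 0.10 (adjusted p = 0.535). Between the doses none of the 38 was called, beside 0.0234% of all genes, and 5 (13.2%) had an unadjusted p under 0.05, beside 12.2% of all genes.

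Beside DHT, enzalutamide raised PSAT1. With 1 µM added to DHT, PSAT1 read 12.92, 12.89 and 13.14, above all DHT arrays, and it was the only one of the 38 called (1 higher, beside 3.5% of all genes tested). It rose by 0.46 ± 0.10 (adjusted p = 0.0137, limma), or by 0.56 without the high-ACTB pair (adjusted p = 0.00102). With 10 µM it read 13.04, 12.89 and 12.93 and rose by 0.42 ± 0.10 (adjusted p = 0.0119), or by 0.53 without those arrays. The calls were lost without DHT array 1 (0.33 and 0.30, adjusted p = 0.0770 and 0.0616). The call at 1 µM was also lost without array 3 of that combination (0.38, adjusted p = 0.0955), and the call at 10 µM without array 1 (0.38, adjusted p = 0.0549). The DHT arrays enter both these comparisons and the one of DHT with vehicle, so the values are not independent of the fall described above.

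CHAC1 read 7.21, 7.07 and 7.38 with DHT and 1 µM enzalutamide, above all DHT arrays, and 7.37, 6.87 and 7.24 with 10 µM, where 1 array lay just under the highest DHT array. The differences from DHT were 0.84 ± 0.29 and 0.78 ± 0.29 and were not called (adjusted p = 0.135 and 0.106, limma). PHGDH showed 0.37 ± 0.17 and 0.48 ± 0.17 (adjusted p = 0.292 and 0.0848), with all arrays of both combinations above the DHT arrays. With the pair left out, PHGDH rose by 0.53 at 10 µM (adjusted p = 0.0428) and ATF4 rose by 0.50 and 0.37 (adjusted p = 0.0152 and 0.0454). In that fit 3 of the 38 rose and 1 fell at 1 µM, beside 4.11% of all genes, and 4 rose and 1 fell at 10 µM, beside 8.81%. The others were SLC7A1 (0.33) and GPT2 (-0.93) at 1 µM and SLC7A11 (0.42) and TARS (-0.44) at 10 µM. Over the 38 genes the median difference was 0.13 at 1 µM, against 0.02 over all genes, and 28 of the 38 lay above 0.

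With 10 µM beside DHT, 1 gene rose and 2 fell, beside 8.43% called among all genes tested (3.97% higher and 4.45% lower). TARS, at 11.72, 11.47 and 11.55 against 12.03, 11.96 and 12.00 with DHT, fell by 0.42 ± 0.10 (adjusted p = 0.0138, limma). Leaving out array 2 or 3 of the combination ended that call (-0.36 and -0.40, adjusted p = 0.0821 and 0.0582), and so did the mean over the TARS probe sets (-0.14, adjusted p = 0.562). SLC38A2, at 13.37, 13.20 and 13.19 against 13.49, 13.48 and 13.48, fell by 0.23 ± 0.07 (adjusted p = 0.0462). Its call held under 5 of 26 alternative settings and was lost without the high-ACTB pair (adjusted p = 0.0560). Both genes had been higher with DHT than with vehicle on every array, without a call there. With quantile normalization 2 rose and 1 fell at 1 µM and 3 rose and 3 fell at 10 µM. The share of all genes called with that normalization is not given, so these counts have no background. Between the doses beside DHT none of the 38 was called, beside 0.0701% of all genes, and 2 (5.26%) had an unadjusted p under 0.05, beside 7.99% of all genes.

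DHT added to 1 µM enzalutamide, compared with that dose alone, raised ALDH18A1, SLC1A5, GOT1 and ATF5 and lowered DDIT3 and CEBPG. These were 4 higher and 2 lower of the 38, beside 18.8% called among all genes tested (11% higher and 7.87% lower). Without the high-ACTB pair 2 rose and 1 fell, beside 14.7%. With each array centred on its median 6 genes were called, all higher, and with quantile normalization 2 were higher and 4 lower. These were partly other genes. DDIT3 and CEBPG stayed lower but lost their calls with centring, and GOT1 and ATF5 lost theirs with quantile normalization. The share of all genes called is not given for these 2 settings, so their counts have no background. Centring moved the median over all genes from -0.01 to 0.16 in this comparison, so that directions here are relative to that shift.

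ALDH18A1, the enzyme that commits glutamate to proline synthesis, read 11.09, 11.07 and 10.98 with the drug alone and 11.37, 11.50 and 11.55 with DHT added. It rose by 0.43 ± 0.11 (adjusted p = 0.0116, limma), without overlap and under all 26 alternative settings. SLC1A5, a glutamine carrier, read 8.55, 8.08 and 8.70 with the drug alone and 8.93, 9.20 and 9.24 with DHT added. The lowest of these is on the array of high ACTB ratio, as is the low DHT value of 8.21. SLC1A5 rose by 0.68 ± 0.19 (adjusted p = 0.0214), or by 0.49 without those arrays (adjusted p = 0.0260). Leaving out only array 2 of the drug group gave 0.49 (adjusted p = 0.115), and leaving out array 2 or 3 of the combination gave 0.64 and 0.61 (adjusted p = 0.0692 and 0.0765).

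GOT1 rose by 0.34 ± 0.11 (adjusted p = 0.0366, limma), from 9.90, 9.80 and 10.13 to 10.26, 10.20 and 10.40. ATF5 rose by 0.41 ± 0.14 (adjusted p = 0.0492), from 8.78, 8.74 and 8.37 to 9.16, 8.98 and 8.97. Both lost their calls without the high-ACTB pair (adjusted p = 0.129 and 0.0516). Leaving out any array of the drug group or the combination other than array 3 of the drug alone did so for GOT1 (adjusted p from 0.0531 to 0.150), and the ATF5 call held under 8 of 26 alternative settings.

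DDIT3 fell by 0.59 ± 0.16 (adjusted p = 0.0178, limma), from 9.25, 9.58 and 9.85 with 1 µM enzalutamide to 9.04, 9.01 and 8.88 with DHT added. It thus fell with DHT both without and beside the drug, and at 10 µM the difference was -0.55 ± 0.16 with no overlap (adjusted p = 0.0755). Without array 2 or 3 of the drug group or array 3 of the combination the call was lost (adjusted p = 0.0511 to 0.0648, differences from -0.57 to -0.44). CEBPG fell by 0.38 ± 0.11 (adjusted p = 0.0250), from 9.76, 10.13 and 9.90 to 9.54, 9.53 and 9.57. The CEBPG call was lost without the high-ACTB pair (-0.28, adjusted p = 0.0785), without array 2 of the drug group alone (-0.28, adjusted p = 0.130) or without any array of the combination (adjusted p = 0.0557 to 0.0696). It was also lost with the mean of the CEBPG probe sets and with each array centred on its median. A second CEBPG probe set, with a mean of 9.48, differed by only -0.08 here, but by -0.52 with DHT against vehicle.

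DHT added to 10 µM enzalutamide gave no call among the 38, beside 2.8% of all genes tested. An unadjusted p under 0.05 (limma) was reached by 10 of the 38 (26.3%) and by 16.3% of all genes. The median difference was -0.13, against 0.02 over all genes, and 28 of the 38 lay below 0. In the fit without the high-ACTB pair, which lies outside these groups, 5 genes fell, beside 6.67% of all genes. They were DDIT3 (-0.55), CEBPG (-0.36), PSAT1 (-0.34), CARS (-0.32) and NARS (-0.32).

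The interaction is the DHT effect beside the drug minus the DHT effect without it, and tests whether the effects differ. At 1 µM only SLC3A2, the heavy chain of several amino acid exchangers, was called (1 of 38, beside 5.78% of all genes tested). SLC3A2 read 10.06, 9.81 and 10.45 with the drug alone and 10.44, 10.50 and 10.33 with DHT added, so that the DHT effect was -0.34 ± 0.13 without the drug and 0.32 ± 0.13 beside it. The interaction was 0.65 ± 0.19 (adjusted p = 0.0446, limma), and it was 0.46 and not called without the high-ACTB pair (adjusted p = 0.151). The call held under 6 of 26 alternative settings.

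For the genes that DHT lowered, the interaction at 1 µM was 0.39 ± 0.14 for PSAT1 (adjusted p = 0.112, limma), 1.14 ± 0.41 for CHAC1 (adjusted p = 0.0995) and 0.77 ± 0.24 for PHGDH (adjusted p = 0.0620). It was 0.41 ± 0.19 for ASNS (adjusted p = 0.204), 0.44 ± 0.14 for AARS (adjusted p = 0.0737) and -0.07 ± 0.23 for DDIT3 (adjusted p = 0.880). None was called, so a smaller DHT effect beside the drug was not established for any of them over all arrays. In the fit without the high-ACTB pair, beside 3.71% of all genes, the interaction at 1 µM was called for ATF4 (0.67, adjusted p = 0.0265), ASNS (0.66, adjusted p = 0.0403) and PSAT1 (0.55, adjusted p = 0.0249). At 10 µM no interaction was called, beside 4.98% of all genes tested, and 4 (10.5%) had an unadjusted p under 0.05, beside 19.2% of all genes. Only ASNS was called there without the pair (0.57, adjusted p = 0.0432, beside 6.65% of all genes).

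In the fit to all arrays, 15 of the 38 genes were called at least once over the 11 comparisons and 23 never. The share of all genes tested that were called at least once was not counted, so these counts have no background. Without the high-ACTB pair, ATF4, ATF3, PYCR1, GPT2, SLC7A5, SLC7A1, SLC7A11, SARS and CARS, all among the 23, were called at least once. The 23 were 5 regulators (ATF4, ATF3, DDIT4, TRIB3 and SESN2), 6 enzymes (PSPH, SHMT2, MTHFD2, PYCR1, CTH and GPT2), 5 transporters (SLC7A11, SLC7A5, SLC7A1, SLC1A4 and SLC38A1) and 7 synthetases (GARS, MARS, WARS, SARS, EPRS, CARS and YARS). Their differences ran from -0.32 to 0.42 for the regulators, from -0.92 to 0.48 for the enzymes, from -0.74 to 0.52 for the transporters and from -0.80 to 1.07 for the synthetases.

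The authors' deposited table holds 3717 of the 54675 probe sets on the arrays, and 3710 of these carry the mark of the authors' own test in at least 1 comparison. The 38 genes have 86 probe sets, of which 10 are in the authors' deposited table. For vehicle against DHT the authors' deposited table marks 6 of the 86 (6.98%), those of ATF5, CEBPG, GOT1, PSAT1, PYCR1 and SLC7A11, and 2539 (4.64%) of all probe sets on the arrays. Of these 6, 3 had a positive log ratio of vehicle minus DHT, that is, a lower signal with DHT. In genes with several probe sets the marked one may differ from the one used above. The authors' deposited table marks none of the 86 for vehicle against 1 µM enzalutamide, with 203 of all probe sets, and 2 for 10 µM, those of CEBPG and PYCR1, with 262 of all. Beside DHT, the authors' deposited table marks none of the 86 at 1 µM, with 718 (1.31%) of all probe sets, and 4 (4.65%) at 10 µM, those of ATF5, CEBPG, GOT1 and SLC7A11, with 1530 (2.8%) of all.

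Of 70 further genes of the stress response, amino acid metabolism, tRNA charging and mTORC1 sensing, 61 were tested. With DHT 14 rose, 4 fell and 43 were not called (29.5% called, beside 16.1% of all genes), and the median difference was 0.08. Without the high-ACTB pair 12 rose and 5 fell (27.9% called, beside 16.7% of all genes), with 14 of these calls shared and a median of 0.05. The largest rise was that of ARG2, the mitochondrial arginase, from 11.78, 11.80 and 11.78 to 13.02, 13.11 and 13.07 (1.28 ± 0.10, adjusted p = 1.62e-08, limma). OAT, which interconverts ornithine and glutamate semialdehyde, rose by 0.77 ± 0.20, the lipoprotein receptor VLDLR by 0.75 ± 0.15, the arginine synthetase RARS by 0.70 ± 0.19 and the neutral amino acid carrier SLC43A1 by 0.65 ± 0.19. Without the pair these were 0.60 for OAT, 0.70 for VLDLR, 0.67 for RARS and 0.81 for SLC43A1, all called. JDP2, a repressive partner of the AP-1 and ATF family, had the largest fall, from 9.16, 9.31 and 9.09 to 7.52, 8.31 and 7.40 (-1.44 ± 0.20, adjusted p = 3.17e-05). The DHT array of 8.31 is that of high ACTB ratio, and without the pair JDP2 fell by 1.73.

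The tRNA synthetases of both lists are set side by side here. Of the 10 synthetases described above 1 fell and none rose with DHT, with a median difference of -0.11. Of the other 10 cytosolic synthetases 3 rose and none fell, beside 7.76% higher and 8.34% lower among all genes tested. Their median difference was 0.16, and no test of the difference between the lists was made. The 3 were RARS and, named here after their values were seen, DARS (0.36 ± 0.09, adjusted p = 0.00865, limma) and FARSB (0.64 ± 0.12, adjusted p = 0.000608). The aspartate enzyme DARS read 12.38, 12.46 and 12.43 with vehicle and 12.74, 12.71 and 12.92 with DHT.

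**Figure D5:**
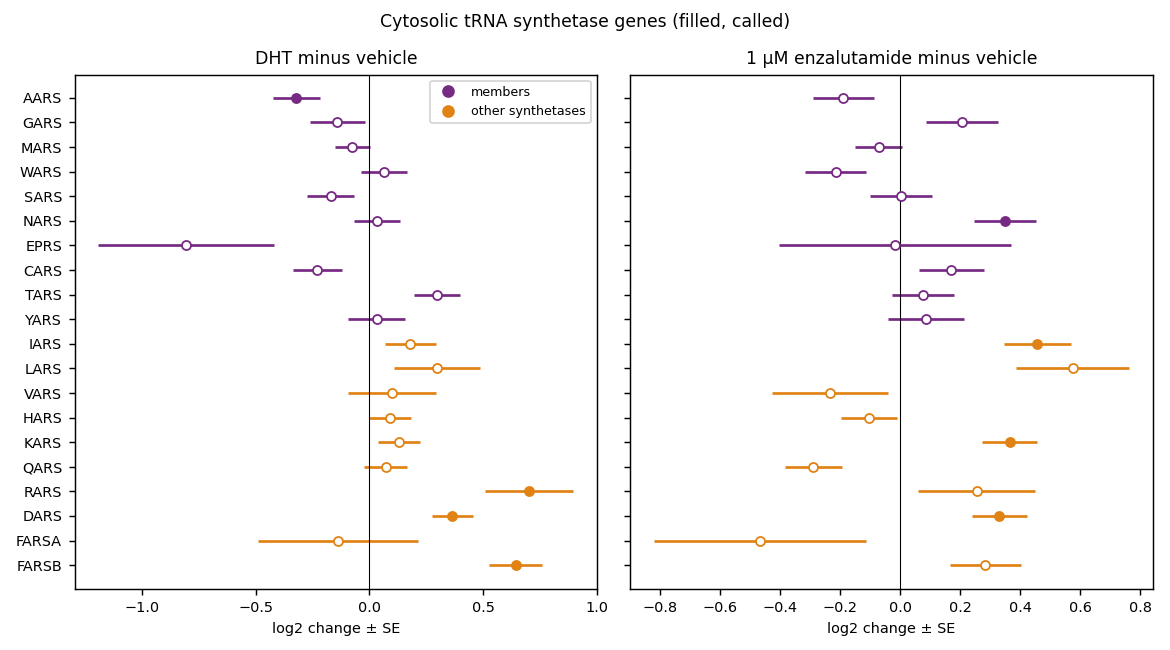
Log2 change with its standard error (horizontal axes) of 20 cytosolic tRNA synthetase genes (rows) for DHT and for 1 µM enzalutamide against vehicle; filled points were called. With DHT, AARS is filled at -0.32, and RARS, DARS and FARSB are filled at 0.70, 0.36 and 0.64.

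In the drug comparisons the further pathway genes showed these calls. At 1 µM enzalutamide 5 of the 61 rose and 1 fell (9.84% called, beside 6.77% of all genes). The synthetases IARS (0.46), KARS (0.36) and DARS (0.33), the synthetase scaffold AIMP1 (0.29) and the stress gene SESN1 (0.50) rose, and PYCRL fell by 2.45. Without the high-ACTB pair only the fall of PYCRL was called (-2.07), 1.64% of the 61 beside 3.33% of all genes. PYCRL, a cytosolic proline synthesis enzyme, read 4.88, 3.88 and 5.11 with 1 µM, far under the brightness limit, and 7.77, 6.56 and 7.48 with 10 µM, so the size of the change is uncertain. At 10 µM only MTHFD1L, a mitochondrial one-carbon enzyme, was called (0.70 ± 0.12, adjusted p = 0.0177, limma), 1.64% of the 61 beside 0.81% of all genes. Leaving out the pair gave 1 higher and 1 lower there (3.28%, beside 2.87% of all genes), with 1 call shared. From 1 to 10 µM, 1 of the 61 rose and none fell (1.64%, beside 0.0234% of all genes), and PYCRL had the largest difference. No such call remained without the pair.

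Beside DHT, 1 µM enzalutamide lowered VLDLR (-0.67) and the glutamine synthetase GLUL (-0.63) and raised EIF4EBP1 (0.63), a translation repressor acted on by mTORC1. These were 4.92% of the 61, beside 3.5% of all genes. Leaving out the high-ACTB pair gave 2 higher and 2 lower (6.56%, beside 4.11% of all genes), with 3 calls shared. At 10 µM 2 of the 61 rose and 6 fell (13.1% called, beside 8.43% of all genes). JDP2 (0.81) and EIF4EBP1 (0.53) were higher, and VLDLR (-0.77), GLUL (-0.75), EIF2S1 (-0.48) and VEGFA (-0.48) were among the lower. Without the pair EIF2S1 was not called (-0.34, adjusted p = 0.0953, limma), and 13.1% of the 61 were called beside 8.81% of all genes. ARG2 was at 12.84, 12.63 and 12.65 with DHT and 10 µM enzalutamide, below all DHT arrays and above all vehicle arrays. With DHT added to 1 µM enzalutamide 10 of the 61 rose and 6 fell (26.2%, beside 18.8% of all genes). Without the pair 12 rose and 5 fell (27.9%, beside 14.7%), with 13 calls shared. PYCRL rose from signals far under the brightness limit, so no size is given for it. The largest of the others were ARG2 (1.07), GDF15 (1.04), LARS (-0.71), VARS (0.69) and JDP2 (-0.66). Without the pair GDF15 rose by 0.68, and LARS was not called (-0.57, adjusted p = 0.0554, limma). With DHT added to 10 µM, ARG2 (0.87) and MTHFD1 (0.32) rose and NUPR1, a small stress-induced chromatin protein, fell by 0.70. These were 4.92% of the 61, beside 2.8% of all genes. The fit without the pair gave 3 higher and 3 lower (9.84%, beside 6.67% of all genes), with 3 calls shared.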

How the data were processed

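Biotin-labelled cRNA from LNCaP cells was measured on arrays with 1 colour, per the labels. The deposited log2 values carried a 2% trimmed mean signal near 500 on every array, so they were on a common scale as deposited. MAS5 is the tool named per the submitters' processing notes; its version and settings were not given in the sources used here. Marks alone were taken from the authors' deposited table of comparisons (log2 ratios and p-values).

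The 62 control probe sets were left out. A gene was a single symbol of the deposited annotation (43570 probe sets, 19395 genes), read from the brightest of its probe sets by mean. A limit of 6.98 on that mean, the median of all probe sets, kept 12840 genes. Synthetases are named by the older symbols of that annotation (AARS is now AARS1). limma 3.58.1 in R 4.3.3 fitted 6 group means to 18 arrays (12 residual degrees of freedom). Its moderated tests used eBayes with a trend on intensity and were two-sided, adjusted by Benjamini-Hochberg over all genes of a comparison. The fit was tested on simulated data. The number of arrays limits the precision, and MAS5 signals near the limit are noisy.

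The sequences of some promoter windows are not reported here. The 38 genes, the further lists, the markers, the motif and the alternatives were chosen with earlier results of these data known. Every one of the 38 genes is accounted for; those called in at least 1 comparison are described with values where the results turn on them, and up to 6 called genes of largest size per comparison are named from the further list. Of its 70 genes, 68 were matched and 61 tested. Tables and plots were made with Python 3.11.15, pandas 2.3.3, numpy 2.4.6 and matplotlib 3.10.9.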

Additional observations from a re-analysis of the deposited data

Results flagged for a closer look

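In 10 cases the effect of DHT beside enzalutamide differed from its effect without the drug by the interaction test in limma, SLC3A2 among the 38 genes and the rest among the further pathway genes. Of the further genes tested, 9.84% were called at 1 µM, beside 5.78% of all genes, and 4.92% at 10 µM, beside 4.98%. At 1 µM the interaction was 0.65 for SLC3A2, 1.19 for the stress cytokine GDF15, -0.97 for GLUL, 2.83 for PYCRL, 0.99 for CBS (the first enzyme of cysteine synthesis from homocysteine), -1.0 for the leucine synthetase LARS and 0.63 for EIF4EBP1. At 10 µM it was 1.17 for JDP2, -0.75 for GLUL and -0.47 for DARS.

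GLUL read 12.78, 12.86 and 12.80 with vehicle and 13.06, 13.31 and 13.10 with DHT, and it read 13.15, 13.44 and 12.87 with 1 µM enzalutamide and 12.53, 12.46 and 12.59 with DHT added to it. GLUL was thus higher with DHT without the drug and lower with DHT beside 1 µM.

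The array of high ACTB ratio in the 1 µM group read 11.09 for GDF15 and 10.41 for CBS, the lowest of its group in both, and 13.32 for LARS, the highest of its group. With the high-ACTB pair left out, the interactions of GLUL (-0.75 and -0.67), PYCRL (2.10), JDP2 (1.45) and DARS (-0.51) were called, and those of SLC3A2, GDF15, CBS, LARS and EIF4EBP1 were not.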

How the results depend on the processing

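No called difference among the 38 genes changed sign under the 8 alternative settings or when each of the 18 arrays was left out in turn. Of 19 calls, 12 held without the intensity trend, 6 with each array centred on its median, 14 with the mean of a gene's probe sets, 11 without the brightness filter, 13 with quantile normalization, 16 with the replicate block and 11 without the high-ACTB pair. With a stricter brightness limit of 8, 18 held, and CHAC1 was not tested there. Only the DHT calls of PSAT1 and CHAC1 and the rise of ALDH18A1 beside 1 µM enzalutamide held under every setting that tested them.

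For DHT against vehicle the 7 calls became 3 without the brightness filter, 3 with centring, 3 without the intensity trend and 13 without the high-ACTB pair. The 1 call at 1 µM enzalutamide became 0 under every alternative but the stricter brightness limit. At 10 µM the count went from 0 to 1 with quantile normalization and to 1 without the high-ACTB pair. For 1 µM beside DHT the 1 call became 0 with centring, 3 with quantile normalization and 4 without those arrays, and for 10 µM beside DHT the 3 calls became 0, 6 and 5. For DHT added to 1 µM the 6 calls became 3 without those arrays. For DHT added to 10 µM the count went from 0 to 1 with quantile normalization and to 5 without those arrays. For the interaction at 1 µM the 1 call became 0 without the brightness filter, with centring or without the trend, 2 with quantile normalization, 3 with the replicate block and 3 without those arrays. For the interaction at 10 µM it went from 0 to 1 with the mean of probe sets, with quantile normalization and without those arrays. The cause of these moves was not tested. Among the alternatives, shares of all genes called are given above only for the fit without the high-ACTB pair. The other counts here have no background, so a move of the list cannot be told from a move of all genes.

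Leaving out 1 array at a time gave 2 to 11 calls for DHT (2 without vehicle array 1 or 2, 11 without DHT array 2 or array 3 of 1 µM enzalutamide), 0 to 7 for 1 µM enzalutamide (7 without array 3 of that group), 0 for 10 µM and 0 to 3 between the doses. It gave 0 to 3 for 1 µM beside DHT, 1 to 7 for 10 µM beside DHT and 0 between those doses. For DHT added to 1 and 10 µM it gave 1 to 10 and 0 to 1, and for the interactions 0 to 7 and 0 to 2. No share of all genes called is given for these fits, so their counts have no background either.

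The replicate numbers did not pair the arrays: deviations from group means correlated at -0.19 to 0.42 (median 0.03) over 45 pairs of equal number, against -0.37 to 0.27 over 90 others, and 7 of 18 arrays correlated best with their own number. With the block the count for DHT was 8 in place of 7 and that for 10 µM beside DHT 2 in place of 3. The calls lost under the block were those of NARS at 1 µM enzalutamide, SLC38A2 at 10 µM beside DHT (adjusted p = 0.0546, limma) and ATF5 for DHT added to 1 µM (adjusted p = 0.0518, limma).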
